A study of Mus musculus with 16 samples.

Results

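The genes described are the enzymes of the urea cycle and of the amino acid breakdown that feeds it, together with markers of periportal hepatocytes, measured on bead arrays of mouse liver. Every probe annotated to one of 10 named genes was taken, and 8 of the 10 had a probe, with 12 probes among the 25697 on the array. These 8 genes were Cps1, Otc, Ass1, Asl, Arg1, Hal, Etnppl and Cyp2f2. No probe was found by symbol or gene identifier for Gls2, the liver form of glutaminase, or Sds, which deaminates serine, and neither was analysed here. All 12 probes were detected on all 16 arrays, and the 8 genes stood among 8386 genes tested.

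Livers came from 16 male C57BL/6 mice, with 4 animals labelled as biological replicates in each of 4 groups. Garlic oil mice ate a Lieber-DeCarli ethanol diet, a liquid feed that gives mice alcohol over weeks, and received garlic oil at 50 mg/kg by gavage. DADS mice ate the same ethanol diet and received diallyl disulfide, an organosulfur compound of garlic oil, at 15 mg/kg. Alcohol mice ate the ethanol diet with the oil vehicle alone, and control mice were pair-fed the control form of the diet. All 4 groups were gavaged daily for 4 weeks with 0.1 ml of olive oil. No group received garlic oil or DADS without ethanol. The array identifiers place the garlic oil and DADS livers on 1 chip of 8 arrays and the alcohol and control livers on the other. Chip and treatment therefore cannot be told apart where a garlic oil or DADS group is set against alcohol or control, and within a chip each group held 4 neighbouring positions, so that group and position cannot be told apart either.

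The urea cycle turns toxic ammonia into urea and runs in the liver, partly in the mitochondria and partly in the cytosol of hepatocytes. Blood enters the liver lobule at the portal tracts and leaves at the central vein, and hepatocytes near the portal tracts carry most of the urea cycle, gluconeogenesis and amino acid breakdown. Hepatocytes around the central vein instead take up leftover ammonia through glutamine synthetase and hold many drug-metabolising cytochromes P450. In whole-liver RNA, fewer cells of a type and less RNA per cell cannot be told apart.

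The sequences just upstream of 4 members are shown because these are the genes whose signal differed between groups and for which the RefSeq promoter table (GRCm38.p6) holds an entry. Windows of 250 bases were taken for 5 of the 8 genes, and Cps1, Asl and Arg1 are named without one. The 4 windows shown end at the base before the gene's annotated start. The Otc window and the second Etnppl window, which are not shown, end past that start and so are not wholly upstream of it. The Ass1 window is chr2:31470020-31470269, the Hal window chr10:93488518-93488767, the first of the Etnppl windows chr3:130617198-130617447 and the Cyp2f2 window chr7:27119705-27119954, all on the plus strand and written 5′ to 3′. Capitals mark matches to a motif.
Ass1 upstream: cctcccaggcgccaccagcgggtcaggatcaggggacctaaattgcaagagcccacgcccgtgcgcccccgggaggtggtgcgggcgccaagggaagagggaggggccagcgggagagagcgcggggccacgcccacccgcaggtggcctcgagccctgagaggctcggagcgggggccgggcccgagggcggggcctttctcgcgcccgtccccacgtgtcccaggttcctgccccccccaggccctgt
Hal upstream: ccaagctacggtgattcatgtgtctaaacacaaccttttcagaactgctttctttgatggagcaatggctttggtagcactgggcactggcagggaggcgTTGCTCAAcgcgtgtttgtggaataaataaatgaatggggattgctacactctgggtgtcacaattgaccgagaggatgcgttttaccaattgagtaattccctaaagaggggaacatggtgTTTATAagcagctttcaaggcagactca
Etnppl upstream: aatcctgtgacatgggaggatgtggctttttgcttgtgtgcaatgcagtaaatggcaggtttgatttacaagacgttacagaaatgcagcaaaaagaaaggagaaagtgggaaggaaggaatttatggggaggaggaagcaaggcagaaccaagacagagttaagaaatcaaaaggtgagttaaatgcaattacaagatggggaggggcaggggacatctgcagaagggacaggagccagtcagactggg
Cyp2f2 upstream: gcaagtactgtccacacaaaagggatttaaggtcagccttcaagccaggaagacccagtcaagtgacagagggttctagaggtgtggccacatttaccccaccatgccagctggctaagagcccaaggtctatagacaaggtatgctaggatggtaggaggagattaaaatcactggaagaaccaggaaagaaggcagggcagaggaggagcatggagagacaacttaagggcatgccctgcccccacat

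Both strands of each window were searched for a C/EBP element (TTGCNNAA), a cAMP response half-site (TGACG), an HNF4 element (CAAAGTCCA), a TATA box (TATAAA) and a palindromic glucocorticoid response element. Hal held a C/EBP match, TTGCTCAA, whose position lies 150 bases before the start, and a TATA box on the other strand, TTTATA, 28 bases before it, and the matches do not overlap. Of 32851 promoter windows of the same length, 9.56% held the C/EBP letters and 12.4% the TATA box. The other motifs occurred in 17.8% (half-site), 0.384% (HNF4) and 0.387% (glucocorticoid element) of windows. The Ass1, Etnppl, Cyp2f2 and Otc windows held 0 matches. A match is a description of letters, not a binding site.

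The deposited signals are mean bead intensities without background subtraction, and arrays detected 10631 to 11526 probes each. Replicates of a group correlated at 0.973 to 0.993 over the 8386 genes tested, each by 1 probe. Of 9 hepatocyte markers with a probe, 8 were detected on all 16 arrays and Fabp1 on 9. Fabp1 was detected on all alcohol and control arrays, and of the garlic oil and DADS chip only on garlic oil replicate 4. The 3 intestinal markers with a probe were detected on none. The alcohol replicate 1 liver stood apart: all 14 pancreatic acinar markers with a probe were detected there with a summed signal of 633350, against 2 to 4 detected and sums of 1861 to 3072 on the other 15 arrays. Member values and the named calls of other genes that involve the alcohol group are therefore also given without that array. In limma, a gene counted as changed when its Benjamini-Hochberg adjusted p over 8386 genes was under 0.05, and log2 changes are given ± SE.

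Alcohol feeding was set against the control diet, which contrasts ethanol without garlic compounds with pair-feeding. Etnppl, Ass1 and Hal rose, none fell, and the other 5 of the 8 genes did not pass the test. Of all genes tested, 3.58% were called in this comparison, 1.94% as higher and 1.63% as lower. The median log2 change of the 8 genes was 0.42, against -0.01 over all genes, and without alcohol replicate 1 it was 0.45, with 2 members called. The 4 genes whose normalized values in all alcohol livers lay above all control livers were Etnppl, Ass1, Hal and Cps1, and 12.7% of all genes had alcohol and control groups that did not overlap in either direction.

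Ass1 encodes argininosuccinate synthetase, which joins citrulline with aspartate in the cytosol. Its signal was 21769, 30576, 27814 and 28306 in garlic oil livers, 21878, 29295, 26651 and 27998 in DADS livers, 18629, 14717.5, 28374 and 21180 in alcohol livers, and 8582, 10184, 13640 and 14358 in control livers. Each liver of the 3 ethanol-fed groups lay above each control liver. In alcohol against control, Ass1 rose 1.78-fold, a log2 change of 0.83 ± 0.17 (adjusted p = 0.0103). Without alcohol replicate 1 the change was 0.91 (adjusted p = 0.0111).

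Etnppl encodes ethanolamine-phosphate phospho-lyase, which splits phosphoethanolamine into ammonia, phosphate and acetaldehyde. Its signal was 662, 755, 994 and 961 in garlic oil livers, 674, 842, 392 and 399 in DADS livers, 856, 337, 738 and 723 in alcohol livers, and 238, 227, 340 and 356 in control livers. All garlic oil and DADS livers lay above the control livers, although the normalized values of DADS and control livers overlapped. The raw signal of 1 alcohol liver, replicate 2, lay within the control range, and after normalization all 4 alcohol livers lay above the control livers. In alcohol against control, Etnppl rose 2.43-fold, a log2 change of 1.28 ± 0.26 (adjusted p = 0.0113), and without alcohol replicate 1 the change was 1.12 (adjusted p = 0.0384).

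Hal encodes histidase, which removes ammonia from histidine in the first step of its breakdown. Its signal was 8148, 14199.9, 12173 and 11974 in garlic oil livers, 11431, 13458, 12920 and 10531 in DADS livers, 9258, 6511, 8658 and 8862 in alcohol livers, and 4157, 5191, 6065 and 6004 in control livers. In raw signal the ethanol-fed livers all exceeded the control livers, the closest being alcohol replicate 2. They also did after normalization, where the closest was garlic oil replicate 1. In alcohol against control, Hal rose 1.54-fold, a log2 change of 0.62 ± 0.15 (adjusted p = 0.033). The call was lost without alcohol replicate 1 (0.60, adjusted p = 0.0719) and without any other alcohol liver (adjusted p of 0.0511 to 0.0699), and likewise without control replicate 1, 2 or 3 (0.0595 to 0.107).

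Cps1 encodes carbamoyl phosphate synthetase, the mitochondrial enzyme that brings ammonia into the cycle. Its signal was 9619.8, 14678, 18872 and 13553 in garlic oil livers, 9776, 14708, 9778 and 7117 in DADS livers, 9629.7, 6389, 11992 and 9029 in alcohol livers, and 5194, 4614.5, 7816 and 7307 in control livers. All garlic oil livers lay above the control livers, while DADS replicate 4 and alcohol replicate 2 lay within the control range in raw signal. In alcohol against control the log2 change was 0.58 ± 0.20 (adjusted p = 0.12), which did not pass, and without alcohol replicate 1 it was 0.57 (adjusted p = 0.194).

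Asl encodes argininosuccinate lyase, which releases arginine and fumarate. Its signal was 1808, 3227.5, 2575 and 2244 in garlic oil livers, 1618, 2675, 2270 and 1747 in DADS livers, 1474, 1222, 2156 and 1700.3 in alcohol livers, and 728, 1197, 1530 and 2109 in control livers. The control livers spanned the widest range of the 4 groups on the log2 scale, with an SD of 0.57, and every other group overlapped them. In alcohol against control the log2 change was 0.27 ± 0.24 (adjusted p = 0.597), and 0.32 without alcohol replicate 1 (adjusted p = 0.612).

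Otc encodes ornithine transcarbamylase, which forms citrulline in the mitochondria, and Arg1 encodes arginase, which releases urea in the last step. The Otc signal was 1373 to 2054 in garlic oil livers, 1471 to 1993 in DADS livers, 1042 to 1541 in alcohol livers and 989 to 1603 in control livers. The Arg1 signal was 31431 to 39882 in garlic oil livers, 26233 to 33020.1 in DADS livers, 26009 to 36264 in alcohol livers and 23279 to 31507 in control livers. The 4 groups overlapped for both genes, and neither passed in any of the 6 comparisons. In alcohol against control the log2 change was -0.08 for Otc (95% interval -0.48 to 0.31, adjusted p = 0.855) and 0.19 for Arg1 (-0.07 to 0.46, adjusted p = 0.448). Without alcohol replicate 1 it was 0.03 for Otc (adjusted p = 0.963) and 0.23 for Arg1 (adjusted p = 0.427).

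**Figure D1:**
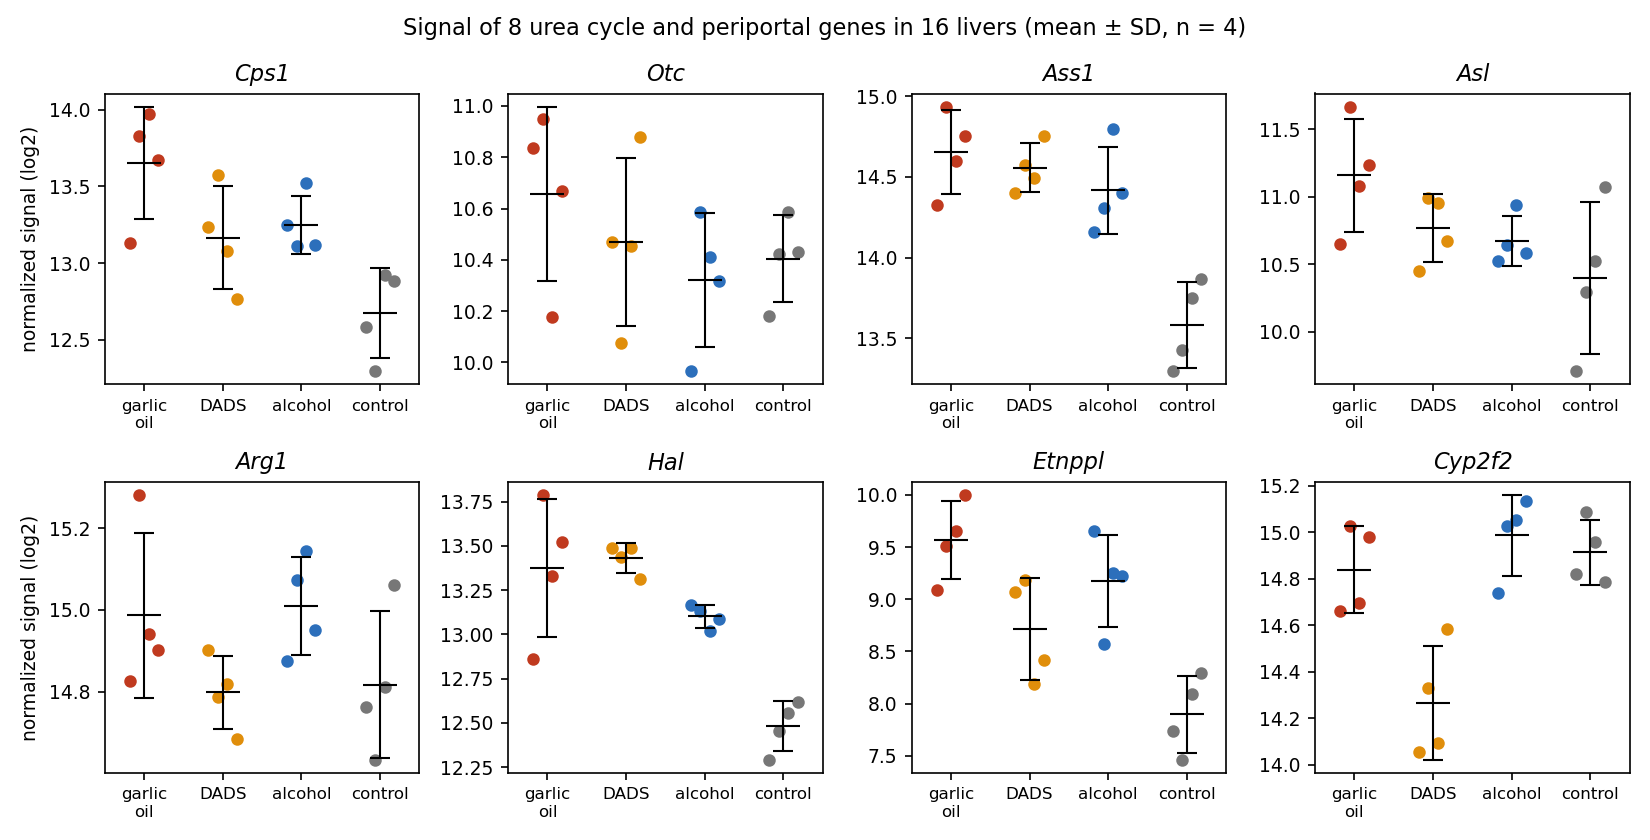
Normalized log2 signal (vertical axis) of the probe standing for each of the 8 genes, 1 panel per gene, in the 16 livers by group; points are livers and bars are the mean and SD of 4. The means of Ass1, Hal, Etnppl, Cps1 and Asl are higher in the 3 ethanol-fed groups than in controls. Etnppl and Cps1 overlap between DADS and control livers, and Asl overlaps the control livers in every group. Cyp2f2 is lowest in the DADS group.

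DADS against alcohol sets ethanol-fed livers with the compound against those without it. The groups lay on different chips, so chip and treatment cannot be told apart here. Cyp2f2, a cytochrome P450 that oxidises naphthalene in mouse lung and is a common marker of periportal hepatocytes in mouse, fell, and the other 7 of the 8 genes did not pass. Of all genes tested, 2.84% were called, 1.23% as higher and 1.61% as lower. The DADS and alcohol groups did not overlap for 2 members, Hal above and Cyp2f2 below, as for 9.17% of all genes. The members' median log2 change was 0.01, against 0.02 over all genes.

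The Cyp2f2 signal was 27662, 32887, 29729 and 33508 in garlic oil livers, 16743, 24163.5, 19933 and 24623.5 in DADS livers, 28009.9, 25332, 34073 and 34927 in alcohol livers, and 24993, 31115, 30775 and 27196 in control livers. Each DADS liver lay below each liver of the other 3 groups, which overlapped one another. Against alcohol, Cyp2f2 was 1.65-fold lower in DADS livers, a log2 change of -0.72 ± 0.14 (adjusted p = 0.0149), and without alcohol replicate 1 the change was -0.80 (adjusted p = 0.0143). Against control it fell by 0.65 on the log2 scale (adjusted p = 0.00582). On the same arrays, 7 of 8 Kupffer cell and macrophage markers tested fell in DADS against alcohol. Their summed signal ran over 8852 to 10249 in garlic oil livers, 3362 to 8597 in DADS livers, 6496 to 10874 in alcohol livers and 7691 to 8801.5 in control livers, 1 of the 9 with a probe was undetected in every group, and their part in the Cyp2f2 difference was not tested.

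The other members did not pass against alcohol. Hal was higher in all 4 DADS livers than in all 4 alcohol livers, with a log2 change of 0.33 ± 0.15 (adjusted p = 0.257). Etnppl had a log2 change of -0.46 (95% interval -1.01 to 0.09, adjusted p = 0.372), with DADS replicates 3 and 4 under DADS replicates 1 and 2. The log2 changes of Ass1, Asl, Otc, Cps1 and Arg1 lay between -0.21 and 0.15. Without alcohol replicate 1 the change was 0.35 for Hal (adjusted p = 0.293) and -0.30 for Etnppl (adjusted p = 0.612), and -0.25 to 0.05 for the other 5.

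Garlic oil against alcohol is the same kind of contrast for the whole oil, also between chips. None of the 8 genes passed in limma, against 2.02% called over all genes (0.692% as higher and 1.32% as lower), and the lowest adjusted p among the members was 0.285. At an unadjusted limma p under 0.05, 0 of the 8 genes were reached by their brightest probe, against 1550 of the 8386 genes tested. Groups did not overlap for 0 of the 8, against 9.04% of all genes. The estimates for Asl (0.49 ± 0.24), Cps1 (0.40 ± 0.20) and Etnppl (0.39 ± 0.26) were positive, and the interval for Cps1 ran over -0.01 to 0.82. The dimmer Cps1 probe gave 0.59 ± 0.22, with an unadjusted limma p of 0.014 and an adjusted p of 0.161 over all passing probes. The brighter Otc probe gave 0.34 ± 0.19 and the dimmer one -0.27 ± 0.23. Without alcohol replicate 1 the changes were 0.44 for Asl, 0.40 for Cps1, 0.55 for Etnppl and 0.22 for the brighter Otc probe, with a lowest adjusted p of 0.288 among the members. The median log2 change of the members was 0.30, against -0.03 over all genes. Both contrasts against alcohol use the same 4 alcohol livers.

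Garlic oil against DADS is the contrast between the treatments on a single chip. Cyp2f2 rose 1.49-fold in garlic oil livers, a log2 change of 0.57 ± 0.14 (adjusted p = 0.0458), and no other member passed. Of all genes, 1.85% were called, 0.739% as higher and 1.11% as lower, and 8.05% had groups that did not overlap, as Cyp2f2 did. The call was lost without DADS replicate 1, 2 or 3 or without garlic oil replicate 2, 3 or 4 (adjusted p of 0.0641 to 0.125), and with the 2 groups of that chip fitted alone (0.57, adjusted p = 0.147). Etnppl was 1.80-fold higher in garlic oil livers by estimate (0.85 ± 0.26, adjusted p = 0.106), with all 4 livers above the DADS mean, and Cps1 had a log2 change of 0.49 ± 0.20 (adjusted p = 0.221). The doses differed, at 50 mg/kg for garlic oil and 15 mg/kg for DADS, and garlic oil is a mixture of sulfur compounds, so the contrast is not one of compounds at a matched dose. On the same arrays the summed signal of 4 red cell markers was 49862 to 55545 in garlic oil livers, 14354 to 23471 in DADS livers, 17139 to 28752 in alcohol livers and 26924 to 31276 in control livers, and their part in the member values was not tested.

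Garlic oil with ethanol against the control diet gave the longest list of member calls among the 6 comparisons. Etnppl, Ass1, Cps1, Hal and Asl rose and none fell, while Otc, Arg1 and Cyp2f2 did not pass, against 17.9% of all genes called, 8.56% as higher and 9.29% as lower. The groups did not overlap for 4 members, against 24.1% of all genes. The median log2 change of the 8 genes was 0.83, against -0.04 over all genes. Etnppl rose 3.18-fold (log2 change 1.67, adjusted p = 0.000553), Ass1 2.10-fold (1.07, adjusted p = 0.000513) and Cps1 1.97-fold (0.98, adjusted p = 0.00308). Hal rose 1.86-fold (0.89, adjusted p = 0.00105) and Asl 1.69-fold (0.76, adjusted p = 0.0392). The Asl groups overlapped, because control replicate 4 lay above garlic oil replicate 1, and its call was lost without garlic oil replicate 2, 3 or 4 or control replicate 1, 2 or 3 (adjusted p up to 0.133). Cyp2f2 had a log2 change of -0.07 (adjusted p = 0.761).

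In DADS against control, Ass1, Hal and Etnppl rose and Cyp2f2 fell, against 15.9% of all genes called, 8.48% as higher and 7.44% as lower. Ass1 rose 1.96-fold (0.97, adjusted p = 0.00106), Hal 1.93-fold (0.95, adjusted p = 0.000713) and Etnppl 1.77-fold (0.82, adjusted p = 0.0419). The Etnppl call was lost without DADS replicate 1 or 2 or control replicate 1, 2 or 3 (adjusted p up to 0.129), with the replicate block (0.0604) and with the gene's second probe (0.76, adjusted p = 0.0571). Cps1 had a log2 change of 0.49 ± 0.20 (adjusted p = 0.101). The groups did not overlap for 3 members (Ass1, Hal and Cyp2f2), against 22.8% of all genes. The members' median log2 change was 0.43, against 0.00 over all genes. The 3 contrasts against control share the same 4 control livers, and only the contrast with alcohol alone lies within a chip. Their values are set side by side. For Ass1, log2 changes were 1.07 with garlic oil, 0.97 with DADS and 0.83 with alcohol alone. For Etnppl they were 1.67, 0.82 and 1.28, in that order.

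**Figure D2:**
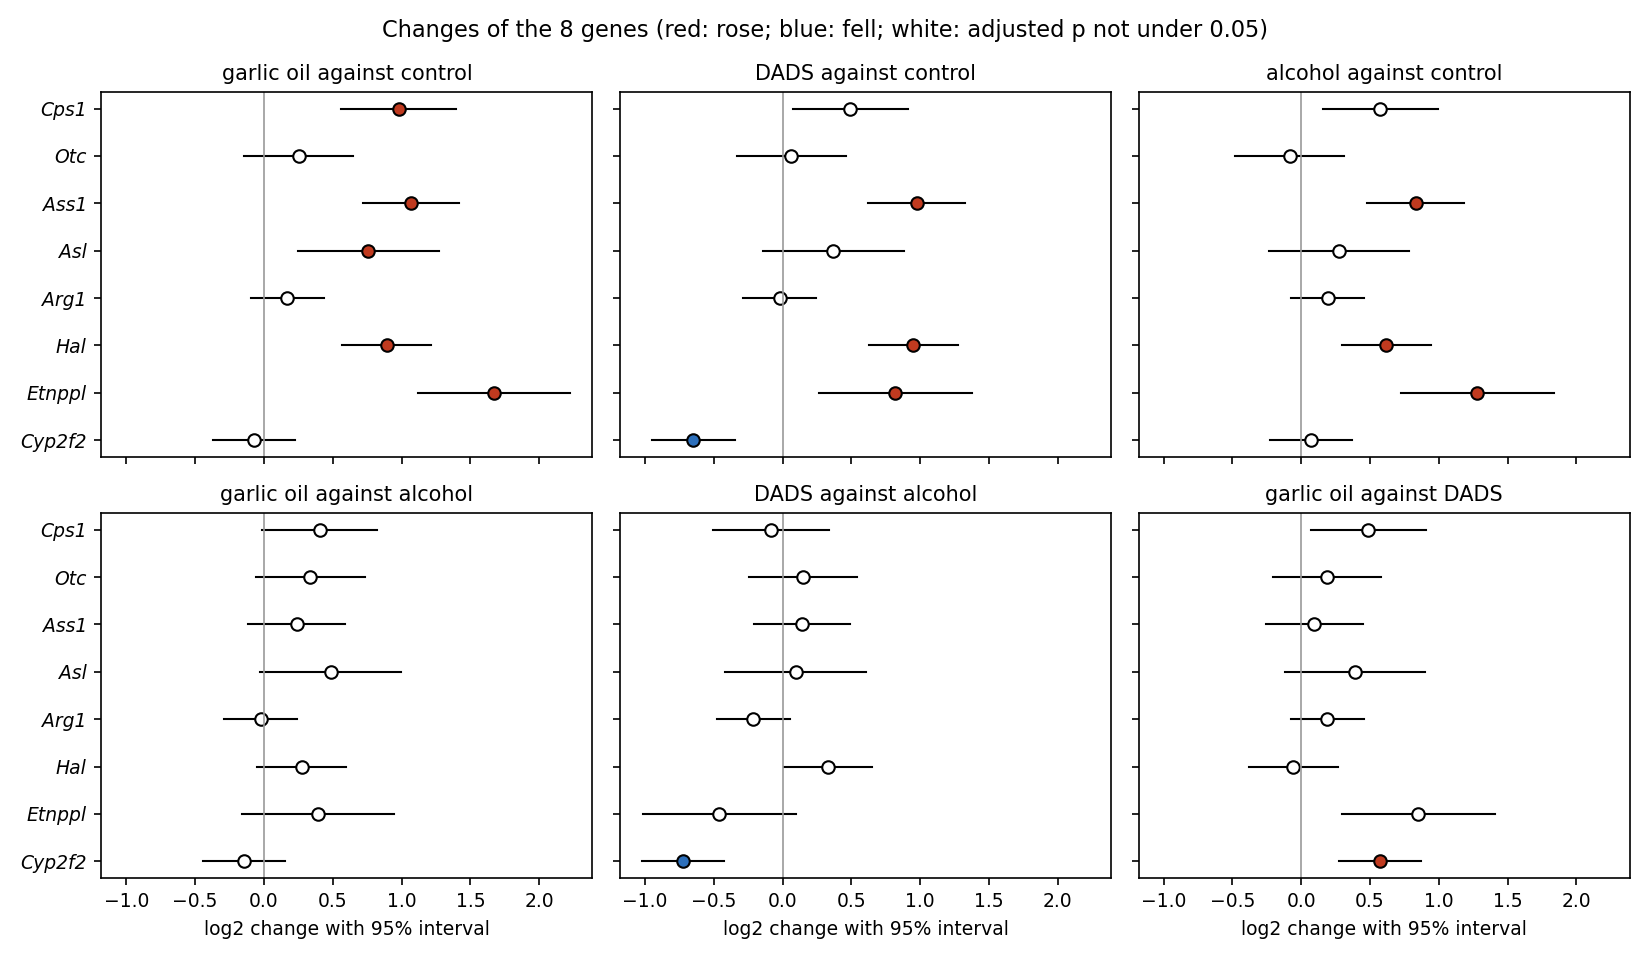
Log2 change (horizontal axis) of the 8 genes in each of the 6 comparisons, 1 panel per comparison; points are estimates, bars are 95% intervals, and points that passed an adjusted p of 0.05 are red where the gene rose and blue where it fell. Etnppl, Ass1, Hal, Cps1 and Asl lie to the right of 0 in all 3 panels against control, with Cps1 and Asl red only for garlic oil. Cyp2f2 lies to the left of 0 in both panels that set DADS over another group.

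Within each group the livers also differed from one another over the member set. The median deviation of the 8 genes from their control means was 0.40 to 1.21 on the log2 scale in garlic oil livers, 0.32 to 0.75 in DADS livers, 0.33 to 0.54 in alcohol livers and -0.17 to 0.23 in control livers. Garlic oil replicate 2 was the highest of the 16, with 7 of 8 genes above every control liver. Garlic oil replicate 1 was the lowest of its group, at 0.40. No ethanol-fed liver fell within the control range of this median. Over the 5 urea cycle genes alone, DADS replicate 1 (0.08), alcohol replicate 1 (0.13) and alcohol replicate 4 (0.19) lay within the control range of -0.23 to 0.24.

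Cps1, Otc, Asl and Etnppl each had a second probe. The probe pairs of Etnppl, Asl and Cps1 followed each other over the 16 arrays, with correlations of 0.99, 0.98 and 0.95. The Etnppl second probe gave a log2 change of 1.15 in alcohol against control and the Cps1 second probe 1.17 in garlic oil against control, close to 1.28 and 0.98 for the first probes. The Otc pair followed each other less closely, with a correlation of 0.55. The second Otc probe was dim, with mean signals of 224 in garlic oil livers, 217 in DADS livers, 257 in alcohol livers and 216 in control livers, and its log2 change in DADS against alcohol was -0.49, against 0.15 for the first probe. The Otc probes were opposite in sign in 5 of the 6 comparisons, so no direction is given for Otc, while those of Cps1, Asl and Etnppl were opposite in 0 of 6.

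**Figure D3:**
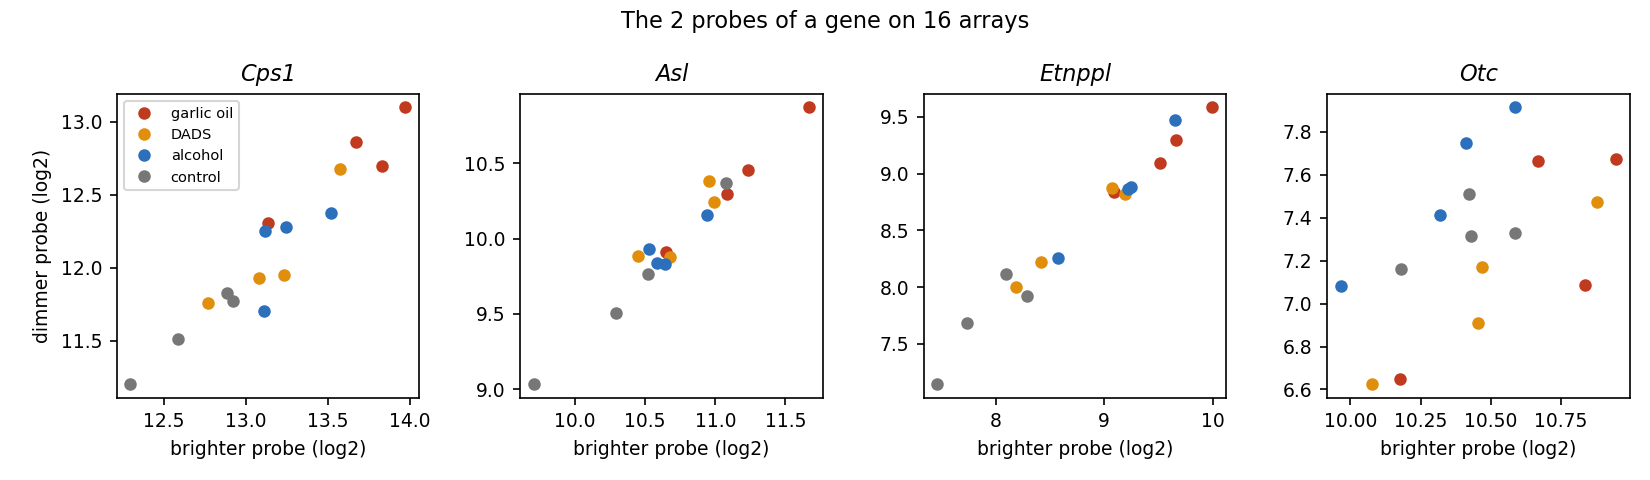
Normalized log2 signal of the brighter, first probe (horizontal axis) against the dimmer, second probe (vertical axis) of Cps1, Otc, Asl and Etnppl, 1 point per liver coloured by group. The pairs of Etnppl, Asl and Cps1 lie along a line, with correlations of 0.99, 0.98 and 0.95, and the Otc pair scatters with a correlation of 0.55.

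Some members moved together from liver to liver. Over the 16 arrays, which share the normalization and the group differences, Ass1 and Hal correlated at 0.89 and Cps1 and Etnppl at 0.88. Ass1 and Asl correlated at 0.76. After group means were removed, these values were 0.52, 0.69 and 0.82, in that order. Otc followed the others weakly, at -0.01 with Cps1 and 0.34 with Ass1, and at -0.45 with Cps1 after group means were removed. Cyp2f2 was also apart from Cps1, at -0.07, and its correlations with the members ran from -0.38 with Hal to 0.32 with Arg1. After group means were removed they ran from -0.16 with Etnppl to 0.53 with Ass1.

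Nearest genes were sought among all genes tested except those with provisional names, such as Riken clones. The gene most like Ass1 in profile over the 16 arrays was Gstt3, a glutathione transferase, at 0.98. Next was Enpep, an aminopeptidase, at 0.92. Gstt3 was also the nearest to Hal, at 0.90. The nearest gene to Cps1 was Etnppl, at 0.88. The nearest gene to Etnppl was Cyp3a11, a drug-metabolising cytochrome P450, at 0.90, and then Abcb11, the bile salt export pump, at 0.89. Arg1 was nearest to Tat, tyrosine aminotransferase, at 0.83, and Cyp2f2 to Tcf20, a transcriptional coregulator, and Mup5, a major urinary protein, each at 0.86. The correlations are descriptions over 16 arrays.

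**Figure D4:**
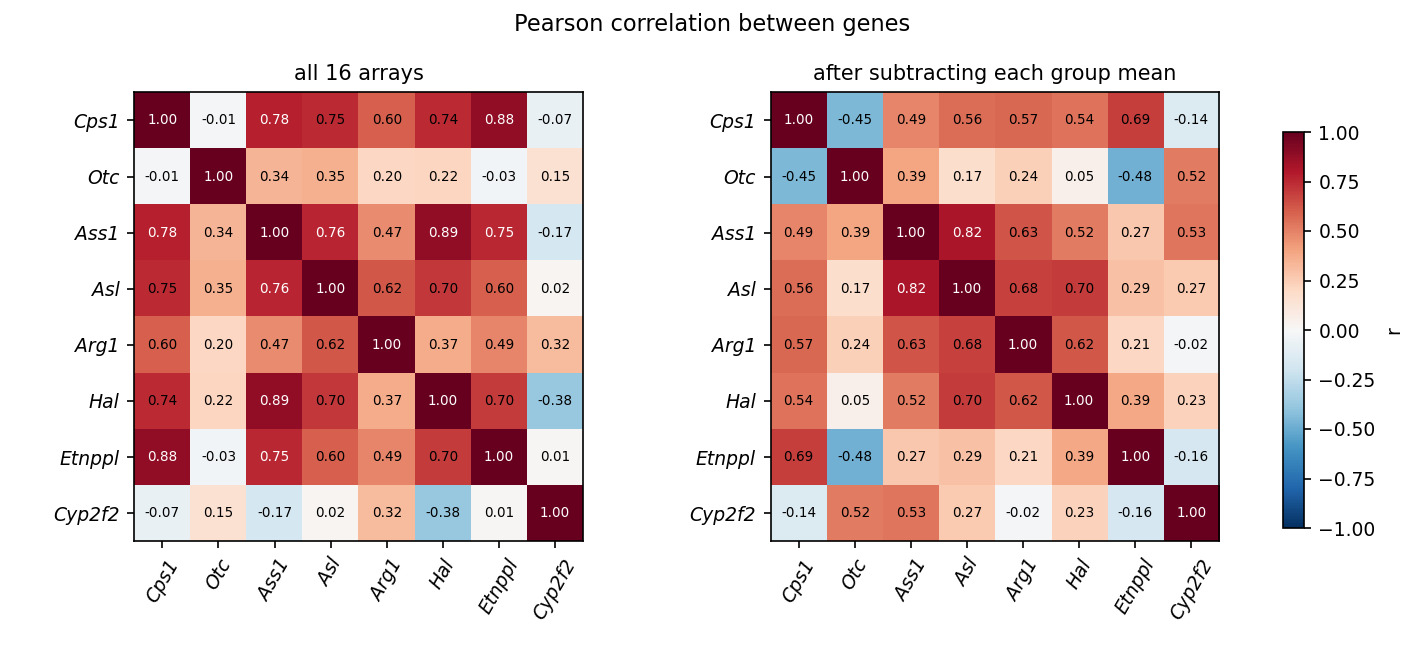
Pearson correlation of normalized log2 signal between each pair of the 8 genes over the 16 livers (left grid) and after each group's mean was subtracted (right grid), with the value printed in each cell. In the left grid Ass1 with Hal (0.89) and Cps1 with Etnppl (0.88) are the strongest pairs, and in the right grid it is Ass1 with Asl (0.82).

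Of 11 further urea cycle genes and carriers listed, 7 were tested: Nags, Slc25a15, Slc25a13, Slc25a12, Oat, Ddah1 and Slc7a2. None passed in alcohol against control, in either contrast against alcohol, or in garlic oil against DADS. Slc7a2, a cationic amino acid transporter that brings arginine into cells, rose in garlic oil against control (log2 change 0.80, adjusted p = 0.00151) and in DADS against control (0.74, adjusted p = 0.00306). Slc25a13, the carrier that exports aspartate from mitochondria for Ass1, rose in garlic oil against control (0.56, adjusted p = 0.0248), a call lost without garlic oil replicate 1, 3 or 4 or control replicate 2 or 3 (adjusted p up to 0.0761). Nags, which makes the N-acetylglutamate that Cps1 needs, fell in garlic oil against control (-0.69, adjusted p = 0.039) and in DADS against control (-0.84, adjusted p = 0.0155). The Nags call against control was lost in 9 of 17 alternatives with garlic oil, among them each of garlic oil replicates 1, 3 and 4 and control replicates 2, 3 and 4 left out (adjusted p up to 0.128). It was lost in 2 of 17 with DADS, which were median scaling and control replicate 3 left out (adjusted p up to 0.0718). The log2 change of Nags in alcohol against control was -0.69 (adjusted p = 0.0927), and -0.48 without alcohol replicate 1 (adjusted p = 0.236). Over the 7 genes the median change in garlic oil against control was 0.29, with 2 that rose and 1 that fell. Of all genes, 17.9% were called in that contrast.

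Of 17 enzymes tested from the histidine, serine, glutamine and transamination routes, Glul, glutamine synthetase, rose in all 3 contrasts against control, by log2 changes of 1.34 with garlic oil (adjusted p = 0.000251), 1.29 with DADS (adjusted p = 0.000354) and 0.87 with alcohol alone (adjusted p = 0.017). The last was 0.89 without alcohol replicate 1 (adjusted p = 0.0352), and its call was lost without alcohol replicate 3 (0.07) or control replicate 2 (0.0666). In DADS against control 5 of the 17 rose and 0 fell, against 15.9% of all genes called. Among the 5 were Psat1 (1.96, adjusted p = 0.00226), detected in 0 control livers, and Gpt2, a mitochondrial alanine aminotransferase (0.66, adjusted p = 0.0113). Their calls were lost in 0 of 16 and 0 of 17 alternatives. Asns, asparagine synthetase, also rose (1.87, adjusted p = 0.0345). The Asns call was lost in 8 of 17 alternatives, among them each of DADS replicates 1, 2 and 3 and control replicates 1, 2 and 3 left out (adjusted p up to 0.102). In DADS against alcohol Gpt2 rose as well (0.63, adjusted p = 0.0472). That call was lost without any 1 of the 8 livers (adjusted p of 0.0505 to 0.118, and 0.0771 without alcohol replicate 1). It was lost in 12 of 17 alternatives in all. None of 8 genes of phosphoethanolamine handling, the route of Etnppl, passed in any of the 6 comparisons.

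Of 17 other periportal markers tested, 0 passed in alcohol against control, and without alcohol replicate 1 Apoa4, an apolipoprotein, fell (-1.17, adjusted p = 0.0262). Cela1, counted among these markers, is also on the list of pancreatic acinar markers. Its signal ran over 643 to 48867 in alcohol livers and 1233 to 1774 in control livers. In garlic oil against control 1 rose and 2 fell, with a median of -0.10. Pck1, the gluconeogenic PEP carboxykinase, rose (0.95, adjusted p = 0.00585), while Fbp1, fructose bisphosphatase, and Slc25a47, a mitochondrial carrier, fell (-0.48, adjusted p = 0.032, and -0.52, adjusted p = 0.0319). The Fbp1 call was lost in 6 of 17 alternatives and the Slc25a47 call in 7 of 17, including median scaling and control replicate 1, 2 or 4 left out for both, garlic oil replicate 1 or 4 for Fbp1 and garlic oil replicate 2, 3 or 4 for Slc25a47 (adjusted p up to 0.172 and 0.1). In DADS against alcohol 1 rose and 2 fell: Apoa4 rose (1.86, adjusted p = 0.003), while G6pc, glucose-6-phosphatase, fell by 1.56 (adjusted p = 0.00164) and Mup20, a major urinary protein, fell by 1.05 on the log2 scale (adjusted p = 0.0071). The values without alcohol replicate 1 were 2.08 for Apoa4, -1.65 for G6pc and -1.14 for Mup20 (adjusted p of 0.00316 to 0.0105). In DADS against control Apoa4 rose and G6pc and Mup20 fell, and the Apoa4 call (0.92, adjusted p = 0.0319) was lost without DADS replicate 1 or 3 or control replicate 1, 3 or 4 (adjusted p up to 0.0962). Among 19 pericentral markers, which include Glul, 7 rose and 1 fell in alcohol against control, with a median change of 0.23. Those that rose included Rhbg, an ammonium transporter (1.49, adjusted p = 0.000559), and Cyp2a5, a cytochrome P450 (2.08, adjusted p = 2.86e-05). Cyp7a1, which starts bile acid synthesis, fell by 3.96 on the log2 scale (adjusted p = 0.00352) and was detected in 3 of the 4 alcohol livers. Without alcohol replicate 1, 6 rose and 1 fell, with changes of 1.41 for Rhbg, 2.15 for Cyp2a5 and -3.84 for Cyp7a1 (adjusted p of 8.19e-05 to 0.0119). In garlic oil against control 7 pericentral markers rose and 3 fell, and in DADS against control 6 rose and 0 fell. In DADS against alcohol 2 rose and 0 fell, and in garlic oil against alcohol 0 rose and 1 fell, also without alcohol replicate 1. In garlic oil against DADS 0 rose and 3 fell. Of all genes, 17.9% were called in garlic oil against control, 15.9% in DADS against control and 3.58% in alcohol against control. The share was 2.84% in DADS against alcohol, 2.02% in garlic oil against alcohol and 1.85% in garlic oil against DADS.

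**Figure D5:**
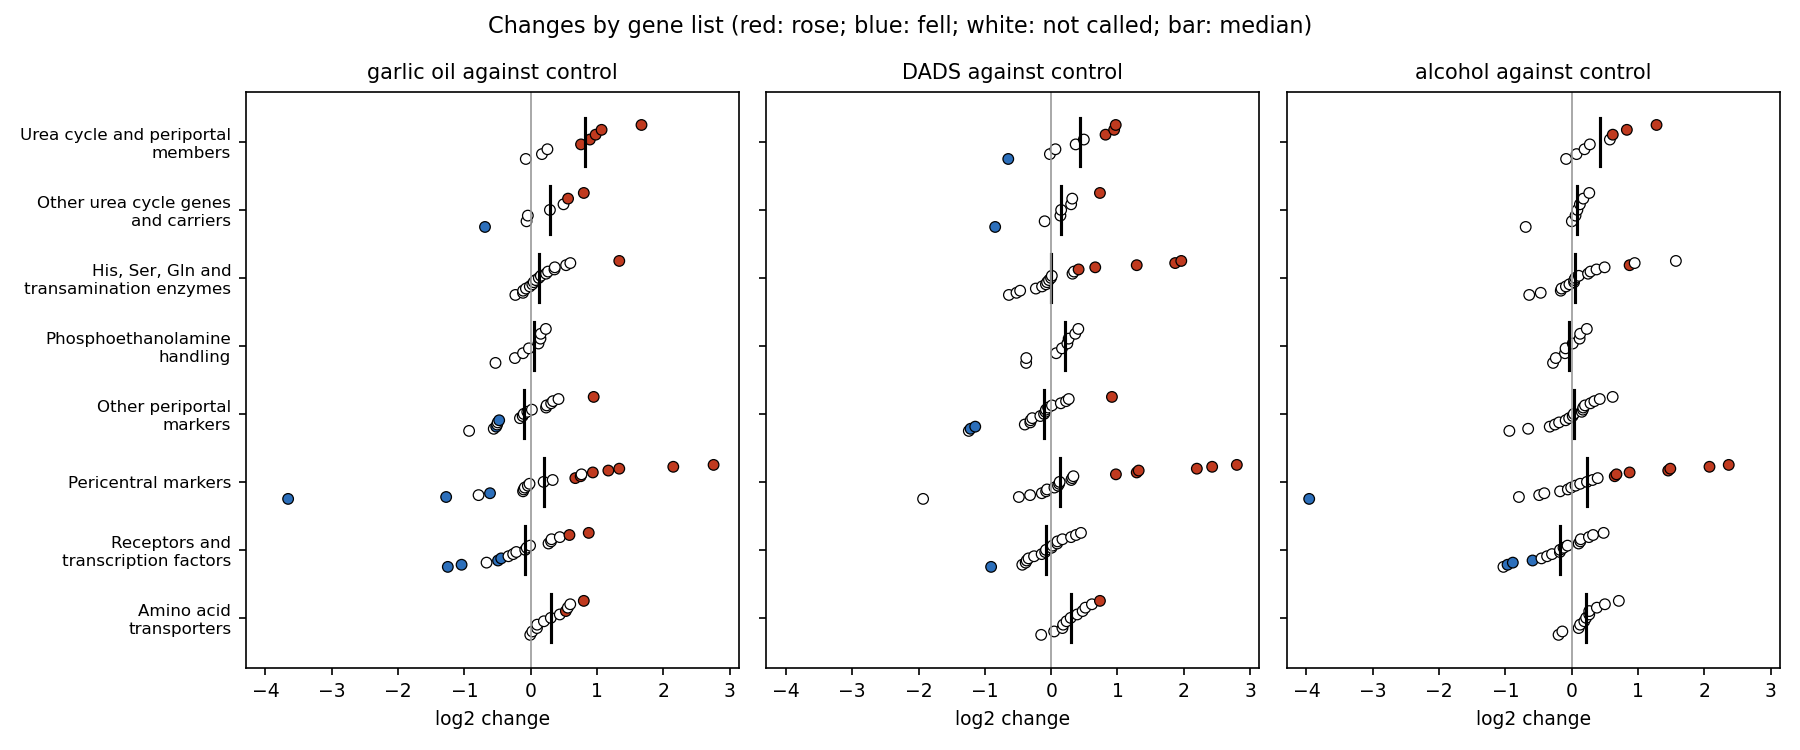
Log2 change (horizontal axis) of the 8 members and of the genes of 7 further lists, 1 row per list, in each of the 3 contrasts against control; each point is a gene, red where it rose, blue where it fell and white where it was not called, and the black bar is the list's median. The median of the 8 members lies at 0.83 in garlic oil, 0.43 in DADS and 0.42 in alcohol livers against control, and the pericentral markers spread to both sides of 0. A gene on several lists appears in the row of each.

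Of 17 receptors and transcription factors tested, 2 rose and 4 fell in garlic oil against control. In DADS against control 0 rose and 1 fell, and in alcohol against control 0 rose and 3 fell. The shares of all genes called in these contrasts were 17.9%, 15.9% and 3.58%, in that order. Cebpa, a C/EBP factor that drives hepatocyte genes, fell in garlic oil against control (-1.25, adjusted p = 0.00331), in DADS against control (-0.91, adjusted p = 0.0244) and in alcohol against control (-0.97, adjusted p = 0.0457). The Cebpa call with DADS was lost in 6 of 17 alternatives, among them each of DADS replicates 2 and 3 and control replicates 2 and 3 left out (adjusted p up to 0.0813). With alcohol it was lost in 10 of 18, among them alcohol replicate 1 left out (-0.84, adjusted p = 0.117), alcohol replicate 3 and each of the 4 control livers (adjusted p up to 0.139). Prox1, a homeobox factor of hepatocytes, fell in garlic oil against control (-1.04, adjusted p = 0.000656) and in alcohol against control (-0.89, adjusted p = 0.00682, and -0.81 without alcohol replicate 1, adjusted p = 0.0234). Hnf4a, a nuclear receptor of hepatocytes, rose in garlic oil against control (0.58, adjusted p = 0.00767). Ppara, a nuclear receptor of the fasting response, rose in garlic oil against alcohol (0.64, adjusted p = 0.0451) and in DADS against alcohol (0.82, adjusted p = 0.0123). With alcohol replicate 1 left out the changes were 0.72 with garlic oil (adjusted p = 0.049) and 0.90 with DADS (adjusted p = 0.016). The Ppara call with garlic oil was lost in 15 of 17 alternatives, among them alcohol replicate 2, 3 or 4 or any garlic oil liver left out (adjusted p up to 0.131), and that with DADS in 0 of 17. Among 11 amino acid transporters tested, Slc7a2 and Slc38a4 rose in garlic oil against control and 0 passed in alcohol against control.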

How the data were processed

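Total RNA of 16 mouse livers was hybridised to 1-colour Illumina BeadChips, per the labels' protocols. The deposited intensity of each probe is a bead signal without background subtraction, and the deposited detection p-value beside it, per the file headers, sets the probe against negative controls. GenomeStudio, lumi and limma are named without roles per the submitters' processing notes. The authors also deposited a table of normalized intensity, made by an unstated method, whose ranks matched the scanner signals.

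Signals were normalized with limma 3.58.1 (neqc, offset 16) in R 4.3.3 and taken to log2. A probe was kept if at least 4 arrays detected it (p under 0.05), as 11938 of 25697 did, and the brightest probe on average stood for a gene. The annotation gave 23978 probes 1 symbol, 0 several and 1719 none. A limma fit with 4 group means (12 residual degrees of freedom) gave 6 comparisons, with Benjamini-Hochberg adjustment over 8386 genes. The number of arrays limits the precision, and the method was tested on simulated data. Those data held independent noise and no chip effect, so they cannot speak to the confounding of chip and treatment.

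The members and gene lists were chosen with earlier results of these data known. Glul, Oat, Gldc and Slc7a2 stood on several lists, so the counts of different lists share genes. The genes named are all members and the tested genes of the urea cycle list. Other genes named are a subset of those most correlated with a member, provisional names left out. The rest are a subset of called genes among the 4 smallest p-values of another list and comparison. Alternatives were other normalizations, filters, probe rules, array weights, the replicate block, single chips and leaving out each array.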

Additional observations from a re-analysis of the deposited data

How the results depend on the processing

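The number of members called stayed within 1.5 times in 5 of the 6 comparisons under every alternative run. In garlic oil against DADS it was 0 with no filter on detection, 0 over all passing probes one by one and 0 with that chip alone, in place of 1. Leaving out each array in turn gave 2 to 3 members in alcohol against control, 1 in DADS against alcohol, 0 in garlic oil against alcohol, 0 to 1 in garlic oil against DADS, 3 to 5 in DADS against control and 4 to 5 in garlic oil against control. Over 2398 repeats of single-gene results, 2153 kept their side of the threshold and their direction, 175 lost the call, 15 gained one and 0 reversed with a call, while 55 changed sign without a call either way. Ass1 and Etnppl in alcohol against control and Cyp2f2 in DADS against alcohol kept their call under every alternative run (adjusted p of 0.00295 to 0.0459, 0.00307 to 0.0489 and 0.00545 to 0.0458). Hal in alcohol against control also lost its call with median scaling (adjusted p = 0.079) and with no filter (0.0503), and Cps1 gained one with array weights (0.0464). The cause was not tested.

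Same-numbered replicates did not pair: residual correlations ran over -0.37 to 0.40 in 24 pairs. With the replicate block the members called were 3 in alcohol against control, 1 in DADS against alcohol, 0 in garlic oil against alcohol, 1 in garlic oil against DADS, 3 in DADS against control, where Etnppl lost its call (adjusted p = 0.0604), and 5 in garlic oil against control.

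Counts over all genes moved more. Array weights gave 669 in alcohol against control in place of 300, and 96 in garlic oil against alcohol in place of 169, where the deposited table gave 83 and the replicate block 112. In DADS against alcohol 136 were called with no filter in place of 238, and in garlic oil against DADS 39 with that chip alone in place of 155. Leaving out each array in turn gave 132 to 377 genes in alcohol against control, 98 to 232 in DADS against alcohol, 44 to 161 in garlic oil against alcohol, 72 to 155 in garlic oil against DADS, 885 to 1300 in DADS against control and 907 to 1432 in garlic oil against control. Median scaling shifted the median gene by 0.16 in DADS against alcohol, 0.18 in DADS against control and 0.12 in garlic oil against control, and gave 676 higher and 99 lower in place of 103 and 135 in DADS against alcohol. It gave 105 and 38 in place of 58 and 111 in garlic oil against alcohol, 46 and 191 in place of 62 and 93 in garlic oil against DADS, 1743 and 253 in place of 711 and 624 in DADS against control, and 1005 and 342 in place of 718 and 779 in garlic oil against control. No called member changed direction under the 4 scalings.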
